A study of Homo sapiens with 6 samples.

Results

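Tuft cells are rare chemosensory cells of epithelia, and their identity depends on the transcription factor POU2F3. The POU2F3 subtype of small cell lung cancer (SCLC) is named after the same factor and carries tuft cell genes in place of much of the neuroendocrine programme. H526 is an established SCLC cell line of this subtype. The set described here holds 10 genes of this lineage out of the 62710 gene rows analysed. They were chosen by name as regulators and markers of tuft cells: the factor *POU2F3*, its coactivators *POU2AF2* and *POU2AF3*, the lineage factors *ASCL2*, *SOX9* and *GFI1B*, and the effector and marker genes *TRPM5*, *AVIL*, *CHAT* and *PTGS1*. All 10 were found in the table under their Ensembl identifiers.

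RNA was sequenced from 3 libraries of parental H526 cells (numbered 1 to 3) and from 3 libraries of onvansertib-resistant H526 cells (numbered 7 to 9). Onvansertib is an inhibitor of the mitotic kinase PLK1, and the resistant cells had been kept with the drug for a year while its concentration was raised from 10 to 75 nM. No drug treatment is named for the parental cells. Both were cultured in RPMI-1640 medium with serum, and RNA was extracted at 3 separate times. The labels do not say whether the resistant cells come from more than 1 selected population, so p-values measure only the spread between these libraries, which may be technical.

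The values are gene counts that the authors normalized with DESeq2. From the smallest steps in the values, gene counts totalled about 2.56e+07 to 2.85e+07 reads in parental and 2.23e+07 to 2.33e+07 in resistant libraries. Sequencing was paired-end, so a read here stands for a counted pair. A listing at 0 allows up to 3 reads (counting error only), which correspond to a mean value of 2.84 (parental) or 3.16 (resistant). Tests used limma on log2(value + 1) for genes whose mean over all 6 libraries reached 10, and a gene is called at a Benjamini-Hochberg adjusted p under 0.05 over all 16347 genes tested. Fold changes on this scale are resistant over parental and understate the change of low genes. A single gene cannot go below p = 0.1 in the exact two-sided permutation test of 3 against 3 libraries.

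In the resistant cells some genes of the set rose, some fell and some were not called. *POU2F3* and *POU2AF2* had log2 fold changes of 0.08 and 0.03 and were not called, nor was *POU2AF3* (0.38). *TRPM5*, *CHAT* and *PTGS1* rose 3.40-fold, 3.32-fold and 1.69-fold, *SOX9* and *GFI1B* rose by less, and *AVIL* and *ASCL2* fell. In all, 7 of the 10 genes were called, 5 higher and 2 lower. Over all genes tested, 37.7% were called, 17.8% higher and 19.8% lower. For 8 of the 10 genes no library of one group lay within the range of the other, against 49.9% of all genes tested. The median log2 fold change of the 10 genes was 0.27, and that of all genes tested was -0.000858. The 10 genes were chosen with earlier results of these data known, so these comparisons with all genes carry no test. All 10 passed the filter on low values, and each was above 10 in every library. In RNA from whole cultures, a change in the number of cells that express a gene cannot be told apart from a change in RNA per cell.

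**Figure D1:**
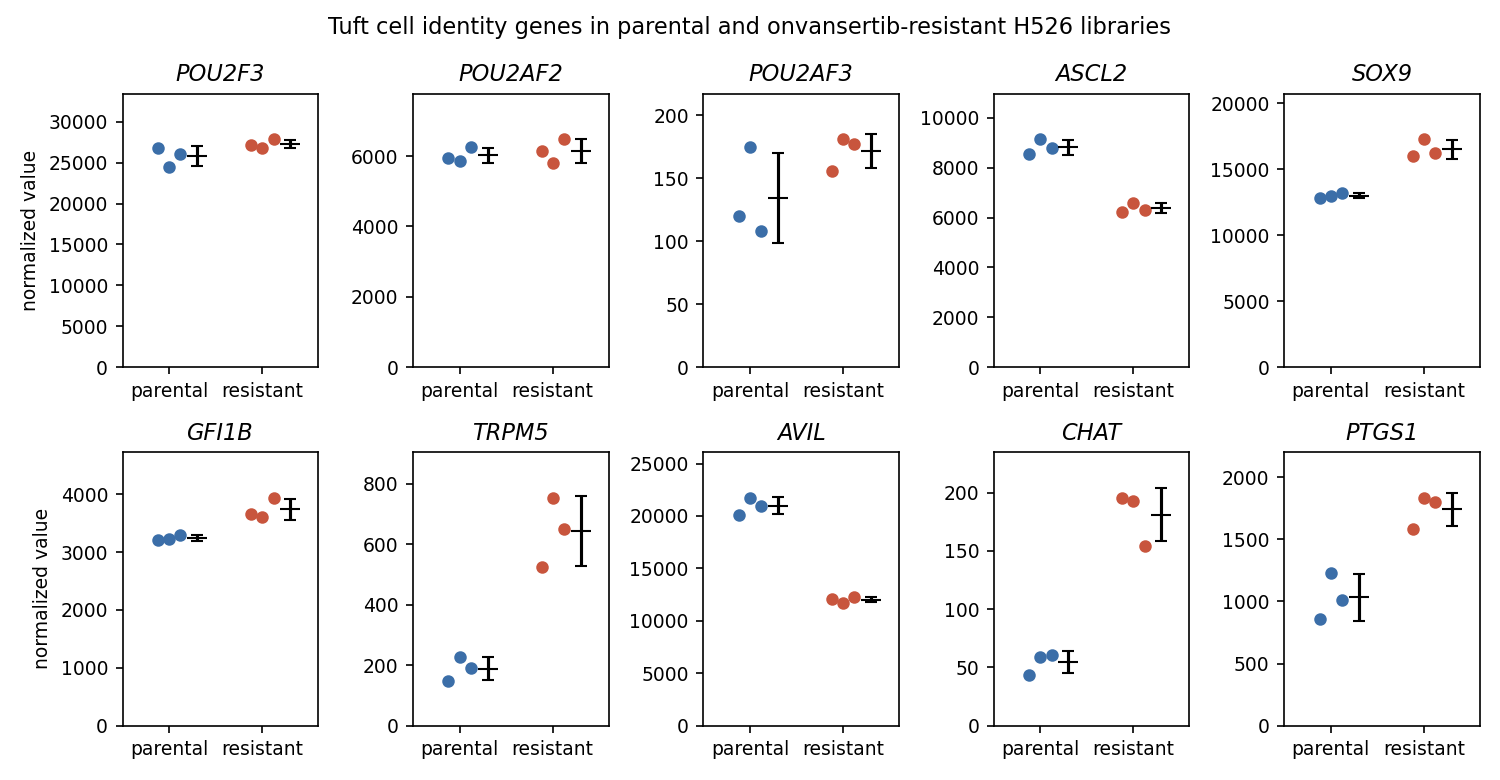
Normalized value (vertical axis, from 0, own scale per gene) of the 10 tuft cell identity genes in 3 parental (blue) and 3 onvansertib-resistant (red) H526 libraries; points are libraries and black marks the mean with its SD. The groups overlap for *POU2AF2* and *POU2AF3* and lie far apart for *TRPM5*, *AVIL* and *CHAT*.

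*POU2F3* encodes a POU domain factor that binds the octamer motif of DNA. The gene (ENSG00000137709.10) lies on the plus strand of chromosome 11 of GRCh38, from 120236640 to 120319945. Its normalized values were 26809.5, 24511 and 26106 in parental libraries 1, 2 and 3 and 27102, 26844 and 27873 in resistant libraries 7, 8 and 9. The lowest resistant library lay just above the highest parental one. The means were 25809 ± 1178 and 27273 ± 535 (SD, n = 3 per group), and the log2 fold change was 0.08, with a standard error of 0.06 (limma adjusted p = 0.304). The 95% interval of the difference ran from -0.05 to 0.21, or from 0.967-fold to 1.16-fold. *POU2F3* was called with quantile normalization, with a log2 fold change of 0.28 (limma adjusted p = 0.00199), and had an adjusted p above 0.05 under each of the other alternatives. 

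*POU2AF2* and *POU2AF3* encode coactivators that join POU2F3 on DNA in tuft cells. Both genes lie on the plus strand of chromosome 11, *POU2AF2* (ENSG00000150750.9) from 111245725 to 111286401 and *POU2AF3* (ENSG00000214290.9) from 111298546 to 111308735, 12.1 kb apart. Values of *POU2AF2* were 5959.6, 5861 and 6266 in parental and 6139.6, 5811 and 6483 in resistant libraries. The groups overlapped in full, with a log2 fold change of 0.03 and a standard error of 0.06 (limma adjusted p = 0.775) and a 95% interval from -0.11 to 0.17. *POU2AF3* was at 119.9, 175 and 108 in parental and 156, 181 and 177 in resistant libraries. Parental library 2 reached the resistant range while the other two lay below it. The log2 fold change was 0.38 (standard error 0.20, limma adjusted p = 0.167), and the interval from -0.07 to 0.82 leaves room for a rise of up to 1.77-fold. Without parental library 2, *POU2AF3* was called (log2 fold change 0.58, limma adjusted p = 0.034).

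The neighbourhood of these coactivators holds 2 related genes. *POU2AF1*, the B cell member of the coactivator family, lies on the minus strand, and its nearer end is 43.5 kb beyond *POU2AF3*. It was at 51.1, 21.6 and 24.5 in parental and 5.34, 15.8 and 7.30 in resistant libraries, and fell with a log2 fold change of -1.70 and a standard error of 0.49 (limma adjusted p = 0.021). Its call was lost without parental library 1, resistant library 7 or resistant library 9 (limma adjusted p = 0.0869, 0.0661 and 0.0554). The non-coding gene *COLCA1* lies on the opposite strand across *POU2AF3*, shares 445 exonic bases with it and was not called (log2 fold change -0.40, limma adjusted p = 0.159). The counting is not stated to use strand, so reads of *POU2AF3* and *COLCA1* cannot be told apart in the shared bases. The broadly expressed octamer factor *POU2F1* was at 1941 ± 44.4 and 2334 ± 449 (SD, n = 3) and was not called (limma adjusted p = 0.127). Without resistant library 9 it was called (log2 fold change 0.39, limma adjusted p = 0.0128). The lymphoid factor *POU2F2* stayed low, at 7.68 ± 6.60 and 18.4 ± 16.7 (SD, n = 3), and was not called (limma adjusted p = 0.249).

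*ASCL2* encodes a basic helix-loop-helix factor known from Wnt-dependent stem cells of the intestine. The gene (ENSG00000183734.5) lies on the minus strand of chromosome 11 from 2268498 to 2270588. Its values were 8541, 9152 and 8785 in parental and 6233, 6599 and 6296 in resistant libraries. Every resistant library lay below every parental one, and the resistant mean was 72.2% of the parental mean. *ASCL2* fell with a log2 fold change of -0.47 and a standard error of 0.06 (limma adjusted p = 0.000175).

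*SOX9* encodes an HMG-box factor of epithelial progenitors. The gene (ENSG00000125398.8) lies on the plus strand of chromosome 17 from 72121020 to 72126416 and was at 12842, 12954 and 13196 in parental and 15968, 17278 and 16239.5 in resistant libraries. All resistant libraries lay above all parental ones. *SOX9* rose 1.27-fold (log2 fold change 0.34, standard error 0.06, limma adjusted p = 0.000973). When the median shift of the surrounding genes was taken out of each library, the log2 fold change was 0.17 and the call was lost (limma adjusted p = 0.0649).

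*GFI1B* encodes a zinc finger repressor that recruits the histone demethylase KDM1A and is best known from the red blood cell and platelet lineages. The gene (ENSG00000165702.15) lies on the plus strand of chromosome 9 from 132944000 to 132991687. Values were 3208, 3227 and 3301 in parental and 3667, 3612 and 3943 in resistant libraries. The groups did not overlap, and the rise was 1.15-fold (log2 fold change 0.20, standard error 0.06, limma adjusted p = 0.0265). The call was lost without the intensity trend (limma adjusted p = 0.0788) and when any library but resistant library 8 was left out (adjusted p between 0.0515 and 0.0993 by limma). *GFI1B* shares 349 exonic bases with *TSC1* on the opposite strand, which fell (log2 fold change -0.43, limma adjusted p = 0.00336).

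Among the effectors, *TRPM5* encodes a calcium-activated cation channel, the last step of the taste-like signalling cascade of tuft cells. The gene (ENSG00000070985.14) lies on the minus strand of chromosome 11 from 2404515 to 2444514, 134 kb from *ASCL2*. Its values were 149, 227 and 191 in parental and 524, 754 and 650.5 in resistant libraries. The lowest resistant value was above the highest parental value by more than the whole parental range. *TRPM5* rose 3.40-fold, with a log2 fold change of 1.77 and a standard error of 0.18 (limma adjusted p = 5.34e-05) and a 95% interval of the fitted fold from 2.58 to 4.49. *ASCL2* and *TRPM5*, near each other on chromosome 11, thus moved in opposite directions.

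*AVIL* encodes advillin, an actin-bundling protein of the villin family found in the microvilli of tuft cells. The gene (ENSG00000135407.11) lies on the minus strand of chromosome 12 from 57797376 to 57818734. Values were 20123, 21748 and 20989.7 in parental and 12046, 11741 and 12266 in resistant libraries. The groups were far apart, and the resistant mean was 57.4% of the parental mean. *AVIL* fell with a log2 fold change of -0.80 and a standard error of 0.06 (limma adjusted p = 5.34e-06). Its neighbours fell too: among the 50 nearest tested genes, between 57.2 and 65.1 Mb, 28 were called lower and 1 higher, and their median log2 fold change was -0.59. With the median shift of these neighbours taken out, *AVIL* kept a log2 fold change of -0.29 (limma adjusted p = 0.00429). *TSFM*, a mitochondrial translation factor that overlaps *AVIL* on the opposite strand with 303 shared exonic bases, fell as well (log2 fold change -0.78, limma adjusted p = 5.77e-05).

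*CHAT* encodes choline acetyltransferase, which makes acetylcholine. The gene (ENSG00000070748.19) lies on the plus strand of chromosome 10 from 49609095 to 49667942. Its values were 43.7, 59.1 and 61.0 in parental and 196, 193 and 155 in resistant libraries. The resistant libraries lay far above the parental ones. *CHAT* rose 3.32-fold, with a log2 fold change of 1.72 and a standard error of 0.21 (limma adjusted p = 0.000156). *SLC18A3*, the vesicular acetylcholine transporter, lies inside *CHAT* on the same strand with no shared exonic bases, and its values overlapped in full, at 94.9 ± 16.8 and 95.9 ± 2.89 (SD, n = 3; limma adjusted p = 0.917, 95% interval of the log2 difference from -0.42 to 0.48).

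*PTGS1* encodes cyclooxygenase 1, which starts prostaglandin synthesis. The gene (ENSG00000095303.17) lies on the plus strand of chromosome 9 from 122370530 to 122395703. Values were 859, 1229.8 and 1011 in parental and 1588, 1837 and 1802 in resistant libraries. The groups did not overlap, although the parental libraries spread widely. *PTGS1* rose 1.69-fold (log2 fold change 0.77, standard error 0.12, limma adjusted p = 0.000873).

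**Figure D2:**
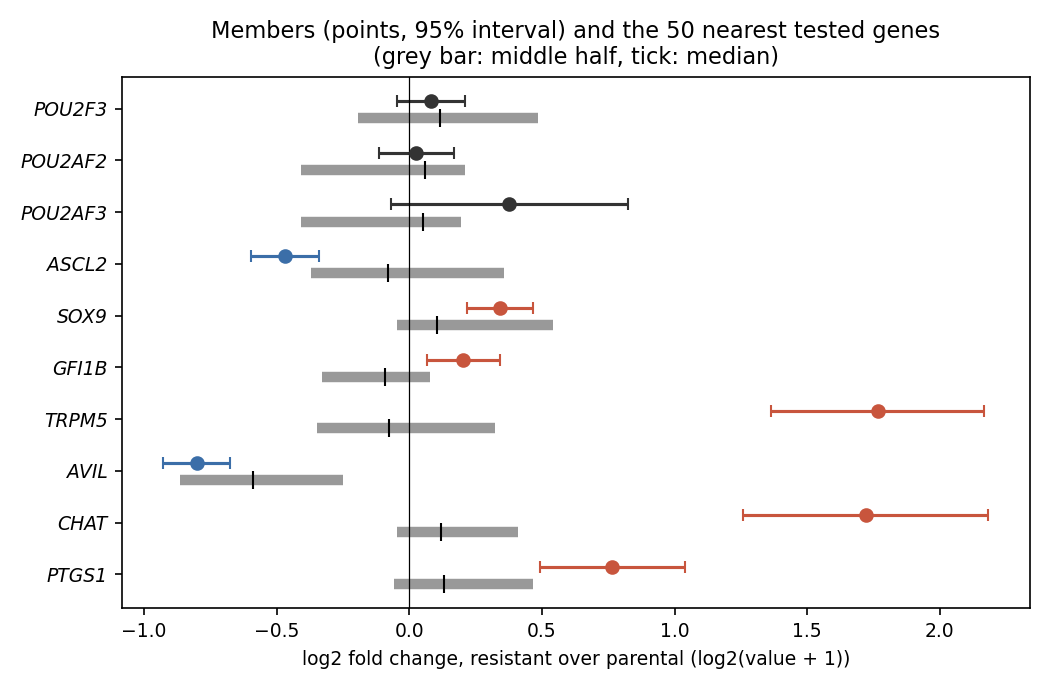
Log2 fold change (horizontal axis, resistant over parental, on log2(value + 1)) of each of the 10 genes with its 95% interval by limma (red called higher, blue called lower, black not called), above the lower to upper quartile (grey bar) and median (tick) of the 50 tested genes nearest on the chromosome. *TRPM5* and *CHAT* lie far above their neighbours, while for *AVIL* the neighbours have a median of -0.59.

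The members differed in how far they stood from their chromosomal surroundings. For *TRPM5* and for *CHAT*, 49 of the 50 nearest tested genes had a lower log2 fold change than the member, and the medians of these neighbours were -0.08 and 0.12. For *PTGS1* 42 of the 50 neighbours had a lower log2 fold change, with a median of 0.13, and for *ASCL2* 42 had a higher one, with a median of -0.08. *POU2AF3*, which was not called, lay above 43 of its 50 neighbours, *GFI1B* above 41, *SOX9* above 34 and *POU2AF2* above 22. *AVIL* stood less apart than *ASCL2*, with 36 neighbours above it and 14 below. *POU2F3* lay in the middle of its neighbours, 27 above and 23 below, with a median of 0.12. These counts are descriptions of positions and carry no test.

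Levels of different genes were compared only per kb of the canonical transcript. In parental cells the order of the mean level was *POU2F3* at 8412 per kb, *AVIL* at 6788, *ASCL2* at 5943, *POU2AF2* at 4489, *SOX9* at 3306, *GFI1B* at 1805, *PTGS1* at 206, *POU2AF3* at 123, *TRPM5* at 33.2 and *CHAT* at 10.3. No neighbours in this order overlapped in their libraries. In resistant cells *POU2F3* was still first, at 8889 per kb, and *AVIL* had dropped below *SOX9*, to 3893. *POU2AF2* at 4575, *ASCL2* at 4294 and *SOX9* at 4196 per kb stood between *POU2F3* and *AVIL*, and the libraries of *POU2AF2* and *ASCL2* and those of *ASCL2* and *SOX9* overlapped. The span from *POU2F3* to *CHAT* was 816-fold in parental and 259.7-fold in resistant cells. Among 16337 tested genes with a transcript length, *POU2F3* ranked 165 in parental and 123 in resistant cells, *AVIL* moved from 205 to 350, and *TRPM5* from 12170 to 9113. Of the regulators, *POU2AF3* was the exception with a low level per kb (rank 8721 in parental and 7989 in resistant cells).

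**Figure D3:**
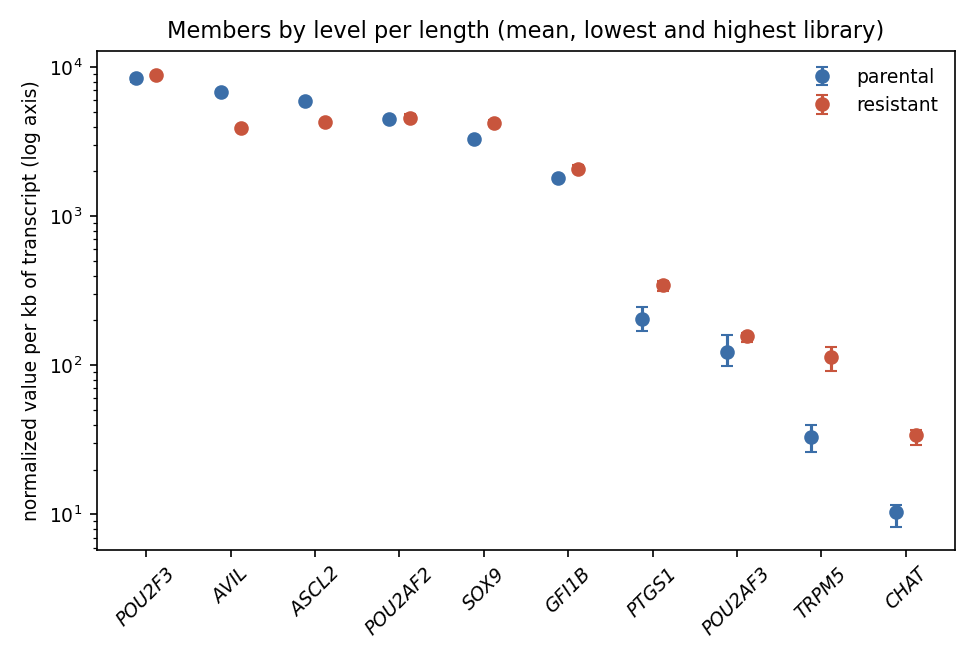
Normalized value per kb of canonical transcript (vertical log axis) of the 10 genes, ordered by parental level; points are means of 3 parental (blue) or 3 resistant (red) libraries and bars run from the lowest to the highest library. *POU2F3* is at 8412 and 8889 per kb, and *AVIL* goes from 6788 to 3893.

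The label of the line was checked against the factors and markers of other SCLC subtypes. The neuroendocrine factor gene *NEUROD1* was at 5.49 in parental library 1 and at or under 1.28 in the others. *YAP1*, the effector of the Hippo pathway, was low but rose from 48.9 ± 6.86 to 111 ± 16.1 (SD, n = 3; log2 fold change 1.17, limma adjusted p = 0.00236). *INSM1*, a neuroendocrine zinc finger factor, was not low in parental cells, at 6091 ± 571 (SD, n = 3). It fell to 1253 ± 114 in resistant cells, or 20.6% of its parental mean. Per kb, *INSM1* was at 2140 in parental and 440 in resistant cells, where *GFI1B* was at 1805 and 2080. Of 8 neuroendocrine markers, 6 were tested and all 6 were called lower in resistant cells, as were 19.8% of all genes tested. Summed levels ran from 9632 to 11208 in parental and from 5597 to 6713 in resistant libraries. The smallest falls in the list had log2 fold changes of -0.48 and -0.47, in genes that stayed at means of 3139 and 2738 in resistant cells. The granule protein gene *CHGA* fell from 254 ± 48.3 to 12.8 ± 3.28 and the synaptic vesicle gene *SYP* from 1334 ± 126 to 301 ± 54.7 (SD, n = 3; log2 fold changes -4.22 and -2.15). *CHGB*, another granule protein gene, had a log2 fold change of -3.77. *SCG2* and *STMN2* were under 3 reads in every library. The part of this fall in the results for tuft genes was not tested.

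Markers of other cell types ranged from 0 to levels above those of the lowest of the 10 genes. Per kb, *COL1A1* was at 10.1 in parental and 45.4 in resistant cells and *ITGA2B* at 39.2 and 61.1. The member *CHAT* was at 10.3 and 34.2 per kb and *TRPM5* at 33.2 and 113. *ITGA2B* was thus above both members in parental cells and above *CHAT* in resistant cells. Of 5 ionocyte markers, *ATP6V1G3* and *ATP6V0D2* were at 0 in every library and *BSND*, which encodes a chloride channel subunit, was not called (limma adjusted p = 0.545). Of 6 blood cell markers, *CD3E* and *HBB* were at 0 in every library and 1, the platelet integrin gene *ITGA2B*, was tested and not called (limma adjusted p = 0.0926), except without resistant library 7, where *ITGA2B* was called higher (0.0418). The summed level of 5 fibroblast markers ranged from 139 to 191 in parental and from 380.5 to 622 in resistant libraries. In this list *COL1A1* and *COL1A2*, which encode type I collagen, rose (log2 fold changes 2.20 and 1.15), *COL3A1* was not called and *DCN* and *PDGFRB* had means under 10 over the 6 libraries. The part of this collagen rise in the results for tuft genes was not tested.

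Beyond the 10 genes, 54 genes in 8 lists cover the wider tuft programme, with the POU2 family above as one of the lists. Of the 43 tested, 17 rose and 6 fell in resistant cells and 20 were not called, so that 53.5% were called, with a median log2 fold change of 0.28. Over all genes tested, these were 37.7% called (17.8% higher and 19.8% lower) and a median of -0.000858. The remaining 11 had means under 10 and were not tested. Without the trend 18 rose and 3 fell, and leaving out any 1 library gave 17 to 19 higher and 3 to 7 lower. The count of 3 lower came without parental library 1 and without parental library 3. The lists were chosen with earlier results of these data known, so the shares describe the lists and carry no test.

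**Figure D4:**
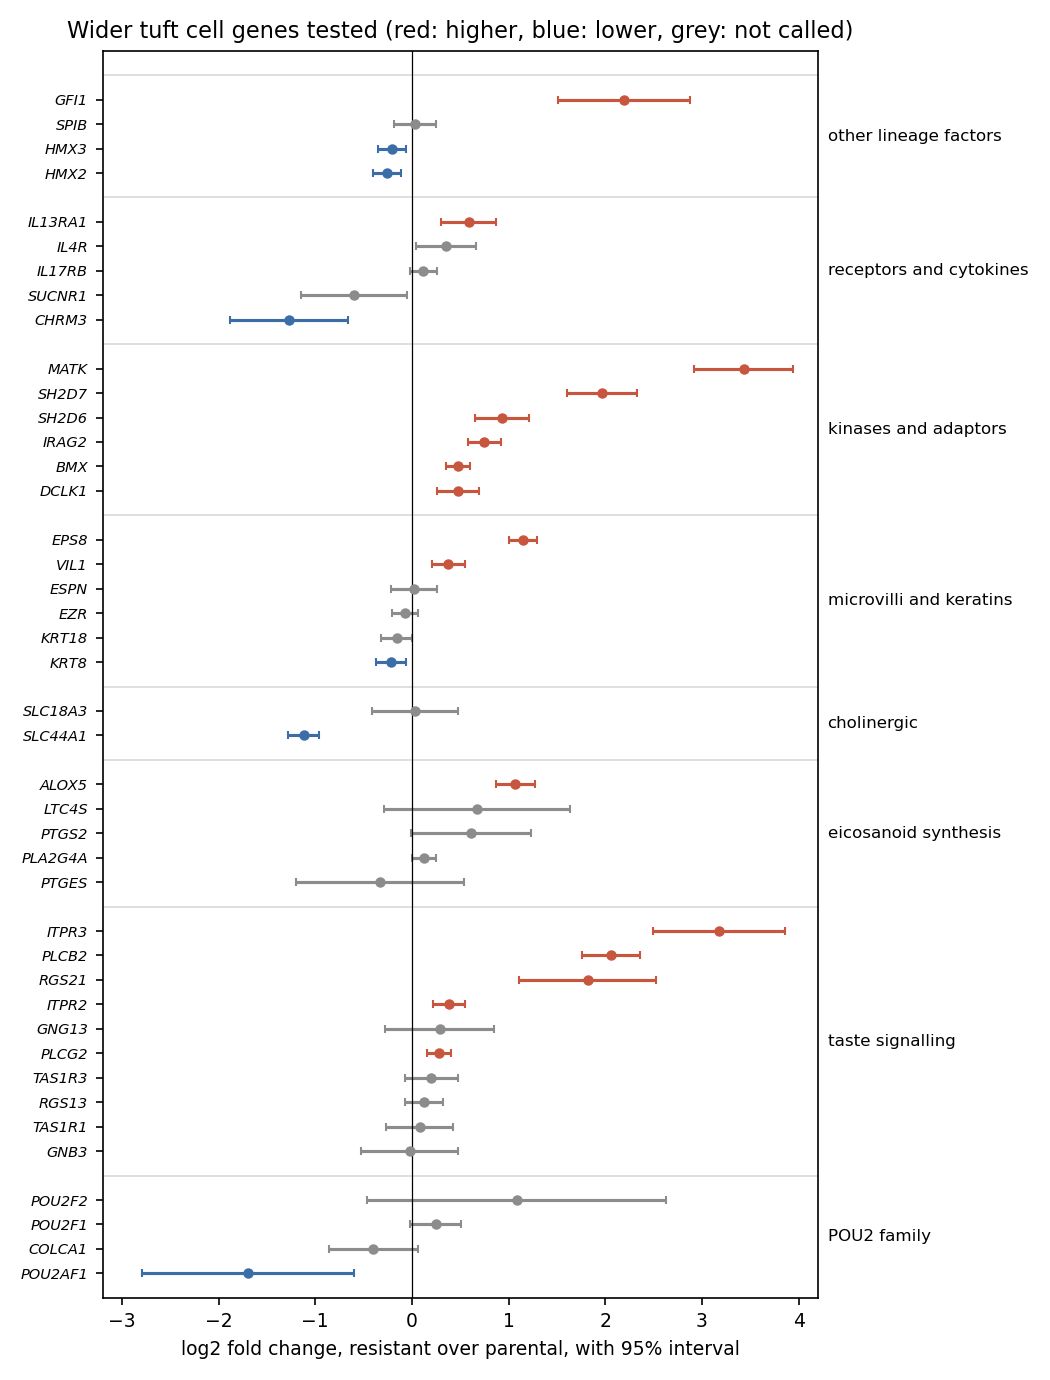
Log2 fold change (horizontal axis, resistant over parental, on log2(value + 1)) with the 95% interval by limma for 42 of the 43 tested genes in 8 lists of the wider tuft programme; red is called higher, blue called lower and grey not called. The 6 genes shown of the kinase and adaptor list lie above 0, with *MATK* at 3.43.

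In the taste signalling list, which holds genes of the taste-like cascade and others of related signalling, 5 of 10 tested genes rose and 0 fell. Over all genes tested, 17.8% were called higher and 19.8% lower. *PLCB2*, the phospholipase upstream of TRPM5, was at 221, 266 and 193 in parental and 868, 1048 and 922 in resistant libraries. *ITPR3*, an inositol trisphosphate receptor that releases calcium, was at 41.0, 36.0 and 16.7 against 243, 281 and 292. Neither gene overlapped between groups, and the log2 fold changes were 2.06 and 3.17 (limma adjusted p = 3.67e-06 and 3.77e-05). *RGS21*, a regulator of G protein signalling, rose from 11.3 ± 1.86 to 42.1 ± 3.38 (SD, n = 3; log2 fold change 1.82). The other 5 tested genes of the list were not called.

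The list of kinases and adaptors rose in all of its 7 genes, while 17.8% of all genes tested were called higher. *MATK*, a kinase that restrains SRC family kinases, was at 85.3, 48.9 and 50.4 in parental and 609.8, 565 and 804 in resistant libraries. *SH2D7*, an SH2 domain gene, was at 99.7, 141 and 142 against 479, 529 and 479. *IRAG2*, a protein of the endoplasmic reticulum membrane, rose from 15343 ± 1619 to 25744 ± 1048 (SD, n = 3). The log2 fold changes of these 3 genes were 3.43, 1.96 and 0.75. 

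Lipid mediator genes were mixed. *ALOX5*, which starts leukotriene synthesis, rose from 508 ± 30.4 to 1068 ± 59.8 (SD, n = 3; log2 fold change 1.07, limma adjusted p = 1.6e-05). It was the 1 called gene of 5 tested in the eicosanoid list (20%, against 37.7% of all genes tested). *PTGS2*, the inducible cyclooxygenase, was at 34.2 ± 8.71 and 52.0 ± 5.35 (SD, n = 3), and *PLA2G4A*, the phospholipase that frees arachidonic acid, at 19265 ± 740 and 20939 ± 306 (SD, n = 3). Neither was called (limma adjusted p = 0.110 and 0.113), though *PLA2G4A* was with quantile normalization (log2 fold change 0.27, limma adjusted p = 0.00342).

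In the remaining lists the directions were mixed. The choline transporter gene *SLC44A1* fell from 6869 ± 261 to 3162 ± 239 (SD, n = 3; log2 fold change -1.12). With the median shift of its neighbours taken out, its log2 fold change was -0.55. The neuronal choline transporter gene *SLC5A7* was at 0 in every library. Among genes of microvilli and keratins, *EPS8* and *VIL1*, which encode actin-binding proteins of microvilli, rose (log2 fold changes 1.15 and 0.38) and the keratin gene *KRT8* fell (-0.22, limma adjusted p = 0.0316). *KRT8* lies on chromosome 12, and with the median shift of its neighbours taken out it rose (0.42, limma adjusted p = 0.00281). The fall of *KRT8* lost its call without parental library 1 or 3 or resistant library 8, without the trend or the filter and with quantile normalization (limma adjusted p from 0.0510 to 0.224). Of receptors, the interleukin receptor gene *IL13RA1* rose (0.59) and the muscarinic receptor gene *CHRM3* fell (-1.27). Of other lineage factors, *GFI1*, the paralog of *GFI1B*, rose from 25.8 ± 11.2 to 115 ± 4.46 (SD, n = 3; 2.19), and the adjacent homeobox genes *HMX2* and *HMX3* fell by less (-0.26 and -0.21). The call of *HMX2* was lost without parental library 3 or the trend (limma adjusted p = 0.0568 and 0.0566). That of *HMX3* was lost with quantile normalization, without the trend and without parental library 1 or 3 or resistant library 7 or 9 (limma adjusted p from 0.0555 to 0.119). 

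Lists around the lineage factors were read in the same way. Of 6 corepressor genes of GFI1B, 1 rose (*RCOR1*, log2 fold change 0.41) and 3 fell, *HDAC1* and *RCOR2* with -0.38 and -0.43 among them. With the median shift of their neighbours taken out, *RCOR1* and *RCOR2* were not called (limma adjusted p = 0.386 and 0.29). Of 9 Wnt and stem cell genes known with ASCL2, 6 were tested and 2 fell: *EPHB3*, an ephrin receptor, from 7586 ± 917 to 4938 ± 365, and *TNFRSF19* from 189.5 ± 81.7 to 57.9 ± 20.4 (SD, n = 3). *NKD1*, a Wnt pathway inhibitor, was not called (limma adjusted p = 0.0610) except without parental library 3 (0.000547), where it was higher. *LGR5*, *OLFM4* and *SP5* had means under 10. Of the genes tested, 33.3% of this Wnt and stem cell list and 66.7% of the corepressor list were called, against 37.7% of all genes tested. Of SOX family genes related to *SOX9*, *SOX6* rose from 83.5 ± 6.36 to 205 ± 60.3 (SD, n = 3), *SOX5* was not called, and *SOX8* and *SOX10* had means under 10.

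POU2F3 binds the octamer, spelled ATGCAAAT, or ATTTGCAT when read on the other strand. RefSeq promoter windows of GRCh38.p14, from 250 bases before to 50 after a start site, were at hand for 5 of the 10 genes (*POU2AF3*, *GFI1B*, *AVIL*, *CHAT* and *PTGS1*) and for 42 of the 54 wider genes, and either strand was searched. None of the 5 held these letters, while 6 of the 42 did (14.3%), as did 2.19% of all 27305 genes with a window. The 6 are shown because they are the wider tuft genes whose windows held the letters that POU2F3 binds. Capitals mark the octamer, and each stretch is on the plus strand.
ITPR3, chr6:33621288-33621317: tcccgggcgggATTTGCATgtgtgtggtgg
BMX, chrX:15507253-15507282: tgatgagtgggATGCAAATatcttcttttt
HMX2, chr10:123148060-123148089: gggtaacctctATGCAAATgaggccgcgcc
POU2F1, chr1:167328880-167328909: aacgaggagagATTTGCATaaggccctaat
IL4R, chr16:27313848-27313877: cggggcggcgcATGCAAATctgccgggcgc
SUCNR1, chr3:151873572-151873601: ggctgcaggatATGCAAATaggatatgcaa
In *SUCNR1* a second octamer follows, and in *ITPR3* the stretch lies in an annotated exon, as it does for *IL4R* in an exon of an overlapping gene (ENSG00000274092). These genes went different ways: *ITPR3* and the kinase gene *BMX* rose, *HMX2* fell with the lost calls given above, and *POU2F1*, *IL4R* (a receptor for interleukin 4) and *SUCNR1* (a succinate receptor) were not called. *BMX* was at 13422, 13119 and 12759 in parental and 18586, 18119 and 17968 in resistant libraries (log2 fold change 0.48, limma adjusted p = 0.000101). *IL4R* and *SUCNR1* had log2 fold changes of 0.35 and -0.60 (limma adjusted p = 0.0692 and 0.0812). *SUCNR1* was called lower without parental library 2 (-0.85, limma adjusted p = 0.0157). *IL4R* was called higher without resistant library 9 (0.46, limma adjusted p = 0.0372). A match of letters is not a measured binding site.

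The E-box CAGCTG, which reads the same on both strands and is bound by ASCL2 and related factors, was present in 1 of the 5 members with a window and in 21.1% of all genes with one. The match lay before a start site of *POU2AF3* and inside an exon of *COLCA1*, and is shown with its E-box in capitals.
POU2AF3, chr11:111299194-111299221: tccctgctgtcCAGCTGcggtccccgca
*ASCL2* fell in resistant cells, while *POU2AF3* was not called. Binding was not measured, and a link between these genes was not tested.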

How the data were processed

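RNA of 3 parental and 3 onvansertib-resistant H526 libraries was analysed. The authors trimmed reads with Trimmomatic 0.38, aligned and quantified them by RSEM 1.3.1 (STAR is also named) against GRCh38 and Gencode v43, and normalized the gene counts with DESeq2 1.30.0, so the deposited values are a normalized signal and not counts. In low values (under 20), between 44.5% and 60.1% were whole multiples of the step of 1 read within 0.05 reads. Reads could thus not be recovered as whole numbers, and a count test was left out. Rows were named and placed by Gencode v44 (62639 of 62710 rows), and 47 second copies of pseudoautosomal genes were left out.

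Genes with a mean of at least 10 were fitted by limma 3.58.1 in R 4.3.3 on the log2 scale after adding 1, with an intensity trend and no term but group, and p-values were adjusted by Benjamini-Hochberg. Per-kb levels used the canonical transcript. Neighbours are the 50 tested genes nearest in order on the same chromosome, a description without a test. The choices varied were the pseudocount (0.1 or 10), the scaling (TMM or quantile), the filter (none, or means of 50 and over), the trend (none), local median centring by these neighbours, and the libraries, each left out in turn. The members and gene lists were chosen with earlier results of these data known. Some genes of the lists are counted in the totals but not reported here by name. With that exception, named genes are the members, the POU2 and subtype lists, genes that overlap a member, and from every further list the 3 genes of lowest p at most. The strand setting of the counting is not given in the sources used here. Genes named for a motif, a level at 0 or a mean too low to test were chosen after their values were seen. Promoters were RefSeq windows (GRCh38.p14), and the members *POU2F3*, *POU2AF2*, *ASCL2*, *SOX9* and *TRPM5* had none in the table used here.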

Additional observations from a re-analysis of the deposited data

How the results depend on the processing

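The number of the 10 genes called ranged from 6 to 8 over the 14 alternatives, and that of the wider tuft genes from 20 to 25. *TRPM5*, *CHAT*, *PTGS1*, *ASCL2* and *AVIL* kept direction and call under every alternative, with log2 fold changes from 1.61 to 1.91, from 1.57 to 1.83, from 0.63 to 0.90, from -0.49 to -0.38 and from -0.83 to -0.29. Calls that changed for *POU2F3*, *POU2AF3*, *SOX9* and *GFI1B* stand beside their results. Directions turned under local median centring for *POU2F3* (-0.0027), *SLC18A3* (-0.1203) and *KRT8* (0.4199), and under quantile normalization for *SLC18A3* (-0.1153). With 1 library left out, *SLC18A3* ran from -0.1211 (without parental library 1) to 0.1294 and *POU2AF2* from -0.0128 (without resistant library 9) to 0.0661. The cause was not tested. *SUCNR1* was called lower under local median centring (adjusted p = 0.0367 by limma) and without parental library 2. *KRT8* and *HMX3* each lost the call under 6 alternatives and *HMX2* under 2. No paired analysis was possible because the parental and resistant libraries share no number and the labels do not tie a library to an extraction time. Depth limits the lowest genes: with 3 reads near a value of 3, members of the lists with means under 10 were not tested.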
